A study of Mus musculus with 16 samples.

Results

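Type I interferon response genes were followed in the cirrhotic mouse liver and in the inflammatory cells taken from it, with and without stem cell treatment. The list held 39 mouse genes given by symbol in 8 roles, and 34 of them were found among the 33269 gene names of the array. The list was drawn up with earlier results of these data known, and the brightest of several probes stood for a gene. No probe on the array was matched here to Herc6, Mx1, Mx2, Samd9l or Xaf1. The study fed an atherogenic high-fat diet for 40 weeks to female C57Bl/6 mice, which then had cirrhosis and received either phosphate-buffered saline (PBS) or stem cells grown from adipose tissue (ADSC, for adipose tissue-derived stem cells). The stem cells were expanded in culture from the groin fat of GFP-transgenic mice, and 100000 of them were injected below the capsule of the spleen on 2 occasions 2 weeks apart. Liver and hepatic inflammatory cells were collected 2 weeks after the last injection, and total RNA of each sample was labelled with Cy3 and hybridised to a one-colour array. The 4 groups of 4 arrays were liver PBS and inflammatory cells PBS (numbers 11 to 14 in each) and liver ADSC and inflammatory cells ADSC (numbers 7 to 10 in each), all from mice on the diet; a group without cirrhosis is not analysed here. Nothing in the labels says that each array came from a separate animal or that samples were not pooled, so each p-value rests only on the variation among these samples, which may be technical. The extraction protocol in the labels speaks of tumor-infiltrating cells and of blood, and how the hepatic cells were isolated is not given.

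Type I interferons (the interferon alphas and interferon beta) are secreted proteins that bind a receptor made of Ifnar1 and Ifnar2. The receptor's kinases Jak1 and Tyk2 then set off a signal in which Stat2 and Irf9 form part of a complex that enters the nucleus and binds the interferon-stimulated response element in promoters. The genes switched on in this way include sensors of viral nucleic acid, enzymes that degrade RNA or block translation, and parts of the antigen processing machinery. Liver macrophages, other leukocytes and hepatocytes can all mount this response.

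Promoter sequence played no part in choosing the genes and is shown first. The RefSeq promoter table (GRCm38.p6) matched 30 of the 39 genes by symbol. The core of the response element, written as GAAA, any 2 bases and GAAA again, was searched on both strands of the 250 bases before the transcription start, and overlapping matches were allowed. It was found for 11 of 30 genes (36.7%), against 936 of the 27025 genes with a promoter in the table (3.46%). The 11 were Bst2, Gbp2, Gbp3, Ifit1, Ifit3, Isg15, Oas1a, Oas3, Rsad2, Stat2 and Trim30a. The gamma-activated site TTCNNNGAA, known from genes induced by interferon gamma, reads the same on both strands and was found for 6 of 30 genes, against 2197 of 27025 (8.13%): Bst2, Eif2ak2, Ifit2, Irf1, Oas1a and Psmb8. A match is a string of letters and not a shown binding site.

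The stretches below come from genes whose responses to ADSC differed: Oas1a, Ifit3 and Trim30a were lower on every ADSC array of inflammatory cells, Ifit1 and Isg15 overlapped between treatments, Rsad2 was higher on 3 of 4 ADSC arrays, and Irf1 stands for a gene with the gamma-activated site alone. Each reads 5′ to 3′ along its gene's own strand and ends before the transcription start, and capitals mark the matches. A match on the opposite strand shows as TTTC at each end.
Oas1a, chr5:120907526-120907643, minus strand: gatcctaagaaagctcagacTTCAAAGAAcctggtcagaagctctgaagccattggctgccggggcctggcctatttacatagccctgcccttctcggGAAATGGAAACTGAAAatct
Ifit3, chr19:34583353-34583436, plus strand: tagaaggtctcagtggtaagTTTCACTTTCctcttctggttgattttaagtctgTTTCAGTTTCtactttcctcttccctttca
Trim30a, chr7:104465200-104465249, minus strand: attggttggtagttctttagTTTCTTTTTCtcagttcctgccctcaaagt
Ifit1, chr19:34640765-34640833, plus strand: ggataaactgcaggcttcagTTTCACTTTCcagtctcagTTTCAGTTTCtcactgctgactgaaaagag
Isg15, chr4:156200855-156200916, minus strand: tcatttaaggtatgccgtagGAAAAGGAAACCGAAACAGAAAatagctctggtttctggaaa
Rsad2, chr12:26456543-26456592, minus strand: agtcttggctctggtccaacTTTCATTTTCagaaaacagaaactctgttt
Irf1, chr11:53769904-53769952, plus strand: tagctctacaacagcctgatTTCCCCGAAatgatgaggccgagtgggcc
The Oas1a stretch holds 2 overlapping matches of the response element and 1 gamma-activated site, and Isg15 holds 3 overlapping matches. Ifit1 and Ifit3, neighbours of 1 family on chromosome 19, each hold 2 separate matches. Among the 10 genes that were lower on every ADSC array of inflammatory cells, 8 had a promoter in the table and 3 of these had the response element motif. Among the other 24 genes it was 8 of the 19 with a promoter.

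Levels are log2 processed signal minus the array's own 75th percentile, so that 0 is the brightness at that percentile, and no probe's level is set against that of another. All 34 genes were well above background on every inflammatory cell array, and every gene except Ifi44 and Ifih1 (each on 7 of 8) on every liver array. The missing Ifih1 value, in liver PBS 11, was a spot the scanner software marked as an outlier, so its fits use 7 liver arrays. The share of spots above background was 51.6% to 66.3%, the array's 75th percentile lay between 123.8 and 551.9 signal units, and correlations within groups lay between 0.921 and 0.984. Arrays were spread over 5 slides and 3 scan days, unevenly between groups.

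Several arrays stood apart. The mean over 12 exocrine pancreas genes was 6.34, 8.42 and 8.51 in inflammatory cells PBS 11, PBS 13 and ADSC 10, between -1.70 and 2.37 in the other inflammatory cell arrays and below -3.70 in liver. Hepatocyte markers (10 genes) had means of 5.54 to 6.41 in liver and -0.36 to 2.09 in inflammatory cells, and the mean over T cell markers was -1.57 to -0.93 in liver and 1.56 to 2.81 in inflammatory cells. Liver ADSC 7 was the highest of its group for 28 of the 34 interferon response genes, and inflammatory cells ADSC 7 was the lowest of its group for 20. Results are given with and without these arrays.

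The same 34 interferon response genes were detected in inflammatory cells and liver, at levels that differed for most. Rsad2, which encodes viperin, an enzyme that makes a chain-terminating nucleotide, was 7.29-fold higher in inflammatory cells, Ifit1 5.15-fold, Isg15 3.74-fold and Irf1 3.05-fold higher. Bst2, which encodes the virus-tethering protein tetherin, was 3.28-fold lower there, Lgals3bp 2.89-fold and the RNA sensor gene Ifih1 2.81-fold lower (8 arrays against 8; liver n = 7 for Ifih1). Of the 34 genes 16 were higher and 10 lower at an adjusted p under 0.05 (limma, Benjamini-Hochberg over 22139 genes), against 48.9% and 35.5% of all genes tested, so shares of 47.1% and 29.4% were close to those of any gene. The median over the 34 was 0.24 and that over all genes 0.35 on the log2 scale. With the 75th percentile taken over detected probes these medians were 0.59 and 0.70, and 19 of the 34 were higher and 7 lower. Every slide and scan day held both sample types, and within them the median ran from -0.18 (slide 2) to 0.98 (slide 1), with all genes between 0.32 and 0.38.

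By role, the genes went both ways, with 2 to 11 genes a role. All 3 antigen processing genes were higher in inflammatory cells: the immunoproteasome subunits Psmb8 (log2 1.02 ± 0.10, SE) and Psmb9 (1.02 ± 0.12), and Tap1, the peptide transporter (0.58 ± 0.21). So were 4 of 5 genes of the OAS family, with Oas2 at 1.50 ± 0.20 and Oas3 at 1.16 ± 0.27. This family includes the enzymes that make the short oligoadenylates that activate RNase L. The cytosolic RNA sensors Ddx58 (RIG-I) and Ifih1 (MDA5) were lower in inflammatory cells, at -1.24 ± 0.19 and -1.49 ± 0.13, and Dhx58 (LGP2) and Zbp1, a sensor of Z-form nucleic acid, did not pass (-0.25 and 0.11). The transcription factors went both ways. Irf1 and Irf9 were higher by 1.61 ± 0.11 and 1.26 ± 0.11, and Irf7 and Stat2 were lower, at -0.72 ± 0.22 and -0.68 ± 0.15. Inflammatory cells and liver did not overlap for 12 of the 34: Eif2ak2, Bst2, Lgals3bp, Ifih1 and Stat2 lay below liver on every array (5 genes, 14.7%, against 23.9% of all genes), and Ifit1, Isg15, Psmb8, Psmb9, Ifi27l2a, Irf1 and Irf9 above it (7 genes, 20.6%, against 33.9%).

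**Figure D1:**
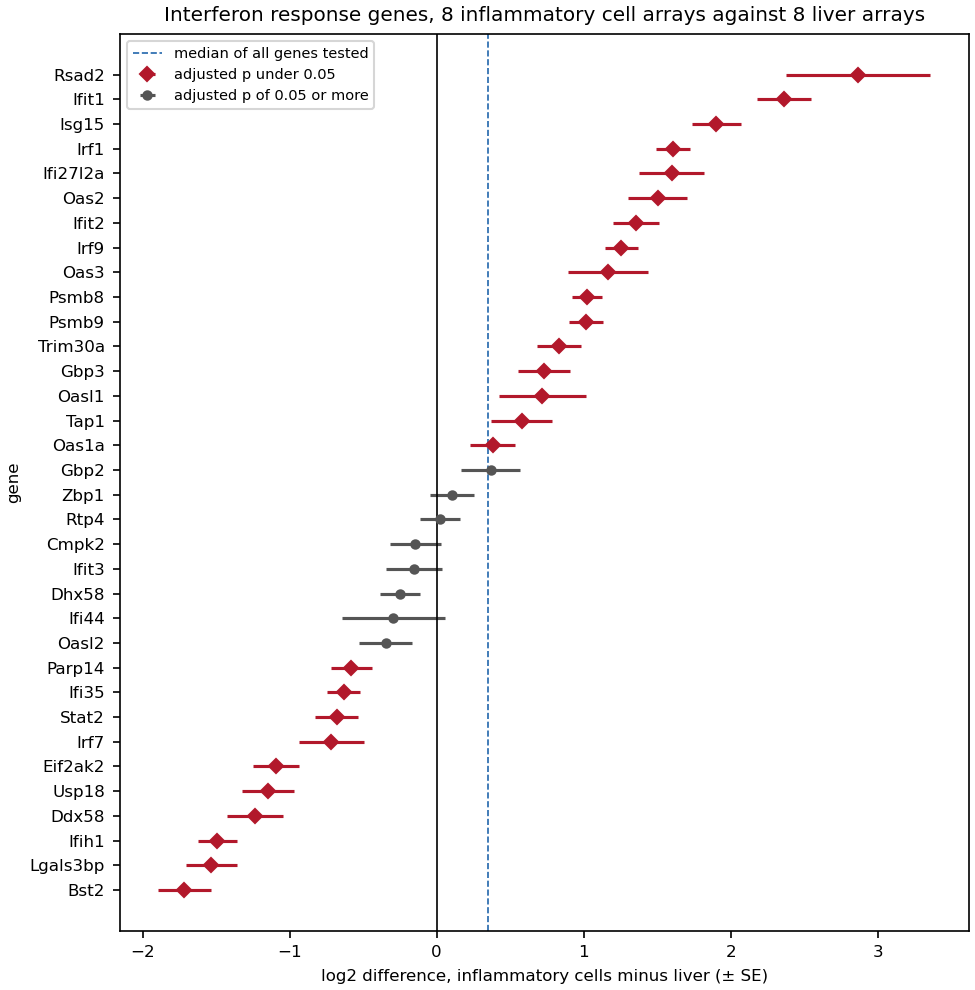
Log2 difference between inflammatory cells and liver (points, with SE) for each of the 34 interferon response genes, ordered by size, from the 16-array fit. Diamonds passed an adjusted p of 0.05 and the dashed line is the median of all genes tested (0.35). Rsad2 and Ifit1 lie furthest to the right and Bst2 and Lgals3bp furthest to the left.

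In inflammatory cells, the question was what stem cell treatment did to these genes. Rtp4, a receptor transporter protein induced by interferon, and Oas1a, an oligoadenylate synthetase, fell 2.17-fold and 2.02-fold. The other genes did not pass. Of the 34, 28 had estimates below 0 (82.4%, against 47.2% of all genes), 10 were lower on all 4 ADSC arrays than on all 4 PBS arrays (29.4%, against 6.68% of all genes) and 0 were higher on all 4 (3.64% of all genes). The transcription factors that drive the response lay near 0, and Rsad2 lay on the other side. The 2 that passed were 5.88% of the 34, against 1.07% of all 20165 genes tested that passed as lower (limma on 4 arrays against 4, adjusted p under 0.05), and 0 passed as higher (0.134% of all genes). At an unadjusted p under 0.05, 15 of 34 were lower and 0 higher (9.08% and 9.36% of all genes). The median of the 34 was -0.55 on the log2 scale and that of all genes 0.03.

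Values per array are given in the order PBS 11, 12, 13 and 14, then ADSC 7, 8, 9 and 10, all as log2 levels. Rtp4 read 4.09, 4.10, 4.50 and 4.33 in PBS and 3.11, 2.97, 3.18 and 3.28 in ADSC. Oas1a read 2.09, 2.42, 2.67 and 2.33 in PBS and 1.25, 1.38, 1.42 and 1.40 in ADSC. In both genes the lowest PBS array stood at least as far from the highest ADSC array as the ADSC arrays did from each other. The difference was -1.12 ± 0.20 (SE, adjusted p = 0.0276 in limma) for Rtp4 and -1.01 ± 0.21 (adjusted p = 0.0431) for Oas1a. Over 21 alternative analyses the Rtp4 estimate ran from -1.30 to -0.88 and passed in 10, and the Oas1a estimate ran from -1.11 to -0.90 and passed in 9, with adjusted p in limma between 0.00323 and 0.137 and between 0.00634 and 0.151. These 21 include the deposited value table, which equals the processed signal and so repeats the result above. Within the scan days that held both treatments Rtp4 was at -1.06 (day 2) and -1.27 (day 3) and Oas1a at -0.94 and -1.26. Day 2 set ADSC 7 and 8 against PBS 11 and 12. Day 3 set ADSC 9 and 10 against PBS 13 alone, an array rich in exocrine pancreas genes and the highest PBS array for both genes.

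The other OAS genes did not pass, and all 4 had lower means after ADSC, Oasl1 by the least. Oas2 read 2.03, 1.84, 1.10 and 1.79 in PBS and 0.02, 0.73, 1.30 and 1.28 in ADSC, a difference of -0.86 ± 0.33 (SE, adjusted p = 0.215 in limma), and its groups overlapped because PBS 13 was low. Oasl2 read 2.37, 2.05, 1.54 and 2.17 in PBS and 0.67, 1.19, 1.40 and 1.40 in ADSC, just apart (-0.87 ± 0.26, adjusted p = 0.145), and Oas3 was at -0.80 ± 0.34, with PBS 13 (-1.86) below 3 of the ADSC arrays. Oasl1 read 3.17, 2.62, 1.31 and 2.03 in PBS and 2.41, 1.65, 2.52 and 2.40 in ADSC. Its difference of -0.04 ± 0.38 was far smaller than the range within either group. Oas1a belongs to a cluster of near-identical genes, and a short probe may pick up its neighbours.

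IFIT proteins bind foreign RNA and restrain translation, and the 3 family members did not read alike. Ifit2 read 1.01, 0.93, 0.78 and 0.86 in PBS and -0.47, -0.05, 0.20 and 0.33 in ADSC, so the groups lay well apart, at -0.90 ± 0.23 (SE, adjusted p = 0.0941 in limma). A second probe of Ifit2, equally above background, gave -0.14. Ifit3 read 2.22, 2.22, 2.01 and 2.37 in PBS and 1.58, 1.08, 1.72 and 1.59 in ADSC, again without overlap (-0.71 ± 0.22, adjusted p = 0.151). Ifit1 read 2.09, 2.15, 1.74 and 1.46 in PBS and 0.93, 1.54, 2.06 and 2.01 in ADSC. Its groups overlapped, and its difference of -0.22 ± 0.29 came mostly from ADSC 7: without that array it was 0.01.

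Isg15 and Usp18, which encode a ubiquitin-like tag and the protease that removes it, also read differently. Isg15 read 3.91, 3.61, 3.59 and 3.17 in PBS and 2.90, 3.60, 3.77 and 3.95 in ADSC, and the groups covered the same range (-0.02 ± 0.27). Usp18, which also dampens signalling at the interferon receptor, read 0.36, -0.03, 1.17 and 0.75 in PBS and -0.52, -0.50, 0.04 and -0.05 in ADSC. PBS 12 fell among the ADSC arrays, and the difference was -0.82 ± 0.29 (SE, adjusted p = 0.192 in limma).

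The transcription factors showed no difference beyond their spread. Irf1 read 5.36, 5.01, 5.32 and 5.33 in PBS and 5.54, 5.07, 5.23 and 5.25 in ADSC (0.02 ± 0.21, SE). Irf7, which amplifies interferon production, read 0.92, 0.62, -0.60 and 0.78 in PBS and -0.27, 0.53, 0.76 and 0.52 in ADSC (-0.05 ± 0.36), with 1 low array in each group. Stat2 read 1.07, 0.52, 0.57 and 1.10 in PBS and 0.39, 1.15, 1.02 and 1.10 in ADSC (0.10 ± 0.25), and Irf9 was at 0.04 ± 0.21. Irf7 and Isg15 turned to above 0 with the 75th percentile over detected probes (0.07 and 0.10), and Irf1 to below 0 with normexp background correction (-0.10). Their estimates therefore have no settled sign.

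Among the sensors, Dhx58 read 0.08, 0.31, 0.04 and 0.41 in PBS and -0.70, -0.52, -0.26 and -0.44 in ADSC (-0.69 ± 0.21, SE, adjusted p = 0.146 in limma), with no overlap. Zbp1 read 2.12, 1.97, 1.47 and 2.37 in PBS and 1.11, 1.51, 1.71 and 1.70 in ADSC (-0.47 ± 0.25), and PBS 13 lay within the ADSC range. Ifih1 was at -0.54 ± 0.22 and Ddx58 at 0.09 ± 0.28. For Ddx58 the 2 dimmer probes gave -0.78 and -0.82, well above background on 2 and 6 of 8 arrays, and the dimmer probe of Ifih1, above background on 1 of 8, gave 0.61.

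The guanylate-binding proteins, GTPases that attack the vacuoles of intracellular pathogens, overlapped between treatments. Gbp2 read 1.20, 1.52, 2.83 and 1.66 in PBS and 1.27, 0.86, 1.33 and 1.27 in ADSC (-0.62 ± 0.33, SE), where the size owed much to the high PBS 13. Gbp3 read 1.35, 1.73, 2.53 and 1.85 in PBS and 1.94, 1.13, 1.74 and 1.74 in ADSC (-0.23 ± 0.29). Eif2ak2, the kinase PKR that stops translation on sensing double-stranded RNA, read -1.29, -0.80, -0.88 and -0.71 in PBS and -2.19, -2.21, -1.32 and -1.58 in ADSC. Its groups just separated, at -0.91 ± 0.26 (adjusted p = 0.137 in limma). Ifi27l2a, a small protein strongly induced by interferon, read 6.73, 6.59, 8.03 and 7.15 in PBS and 6.86, 6.21, 6.54 and 6.37 in ADSC (-0.63 ± 0.32). PBS 13 was again the highest of its group there, and ADSC 7 overlapped with PBS.

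Antigen processing genes had small differences. Psmb8 read 4.58, 4.71, 4.81 and 4.98 in PBS and 4.48, 4.54, 4.70 and 4.51 in ADSC (-0.21 ± 0.20, SE), and Psmb9 read 3.99, 4.07, 4.49 and 4.30 in PBS and 3.66, 4.03, 4.14 and 3.95 in ADSC (-0.27 ± 0.22). Tap1 was at 0.23 ± 0.31. Both proteasome genes turned to above 0 with quantile normalization (0.10 and 0.03). The remaining effectors lay below 0 with Rsad2 left aside. Bst2 read 3.33, 3.95, 4.31 and 4.52 in PBS and 3.59, 2.87, 3.08 and 3.32 in ADSC (-0.81 ± 0.29, adjusted p = 0.196), where ADSC 7 and PBS 11 crossed. Trim30a, a ubiquitin ligase family member, read 1.89, 1.96, 2.59 and 2.20 in PBS and 1.55, 1.50, 1.61 and 1.66 in ADSC (-0.58 ± 0.22, adjusted p = 0.214), and its ADSC arrays lay within 0.16 of each other. Ifi44 was lower on every ADSC array (-0.64 ± 0.23), and Lgals3bp, Ifi35 and Parp14 overlapped (-0.56, -0.39 and -0.27). A dimmer probe of Parp14, above background on all 8 arrays, gave 0.51.

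Rsad2 was the exception, singled out after its values were seen. It read 4.09, 3.64, 2.55 and 3.07 in PBS and 1.78, 4.82, 5.50 and 5.08 in ADSC, so that 3 ADSC arrays lay above every PBS array and ADSC 7 lay below them all. With all 8 arrays the difference was 0.96 ± 0.71 (SE, adjusted p = 0.477 in limma), and its 3 probes gave 0.83 to 0.96. Without ADSC 7 the Rsad2 difference was 1.80 (adjusted p = 0.0372 in limma). Within scan day 2, which holds ADSC 7, it was -0.56, against 2.74 within day 3. The only PBS array of day 3 was PBS 13, the lowest PBS array for Rsad2. Isg20, from the separate list of other interferon-induced genes below, read 3.25, 2.93, 2.71 and 2.73 in PBS and 2.01, 4.49, 4.98 and 4.30 in ADSC. There too 3 ADSC arrays lay above every PBS array and ADSC 7 lay below them all. The Isg20 estimate of 1.04 was the highest of that list and did not pass. Cmpk2, a mitochondrial nucleotide kinase, is the neighbour of Rsad2 in the genome. It read -0.21, 0.15, -0.49 and 0.05 in PBS and -1.07, -1.02, -0.68 and -0.66 in ADSC, below PBS on every ADSC array (-0.73 ± 0.23, adjusted p = 0.156), although its dimmer probe, above background on 3 of 8 arrays, gave 0.35.

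**Figure D2:**
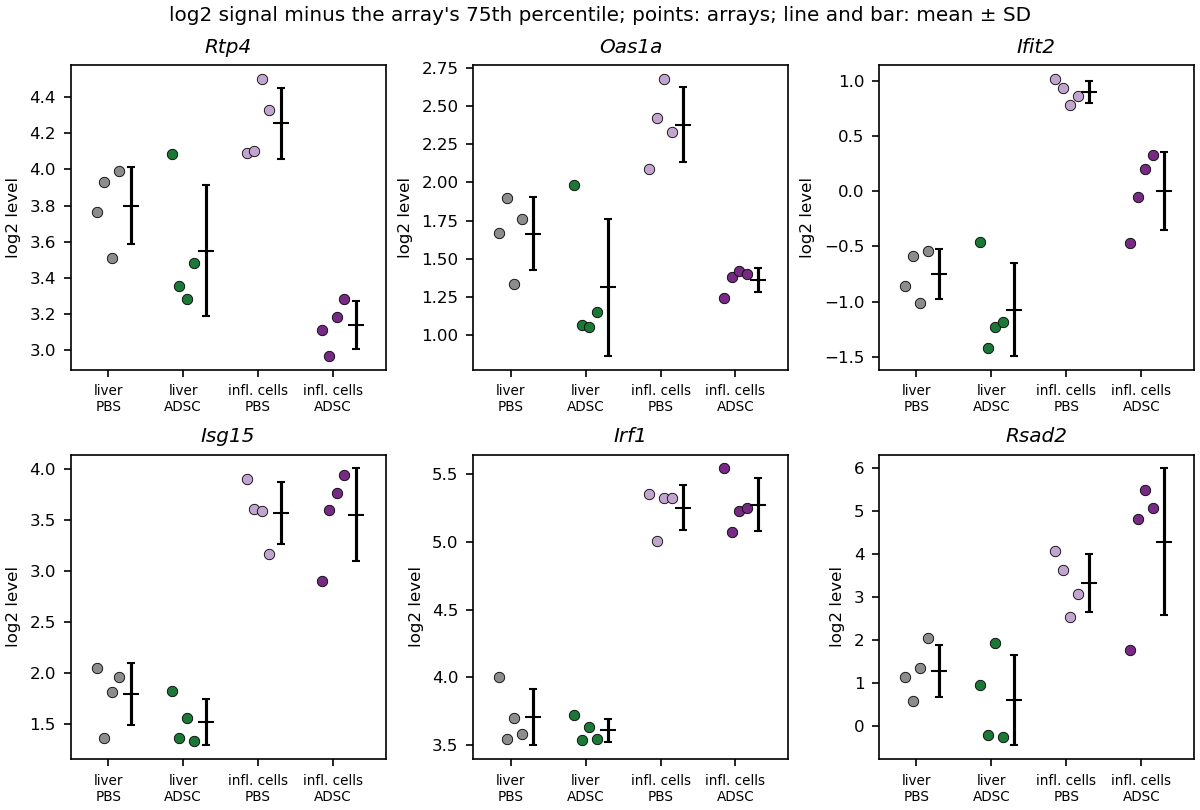
Log2 level on each array (points) with the group mean and SD (line and bar) for 6 genes in the 4 groups. Rtp4, Oas1a and Ifit2 separate by treatment in inflammatory cells, Isg15 and Irf1 separate by sample type and overlap between treatments, and Rsad2 has 3 ADSC arrays between 4.82 and 5.50 and 1 at 1.78.

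Taking arrays away changed the calls more than the sizes. Without the 3 pancreas-rich arrays the median was -0.48 with 28 of 34 estimates below 0, and Rtp4 and Oas1a were at -1.13 and -1.03. None of the 34 passed in limma then (15 lower at an unadjusted p under 0.05), nor did any of 18769 genes (4600 at an unadjusted p under 0.05). Non-overlapping groups were then found for 18 of the 34 as lower, but for 20.1% of all genes too, since 2 PBS arrays faced 3 ADSC arrays. Without ADSC 7 the median was -0.48 and 2 genes passed as lower and 1, Rsad2, as higher. None passed as lower without PBS 12, PBS 14, ADSC 8, ADSC 9 or ADSC 10, and 1 passed without PBS 11. The number on non-overlapping arrays was 10 to 15 when 1 array was left out, with the highest without PBS 13, when 11.9% of all genes did so. Within slides and scan days holding both treatments the median was -0.54 (slide 2), -0.56 (slide 3), -0.60 (day 2) and -0.32 (day 3). Slides 2 and 3 each set 1 ADSC array against 1 PBS array, and day 2 holds the same arrays again. Day 3 set ADSC 9 and 10 against PBS 13 alone.

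**Figure D3:**
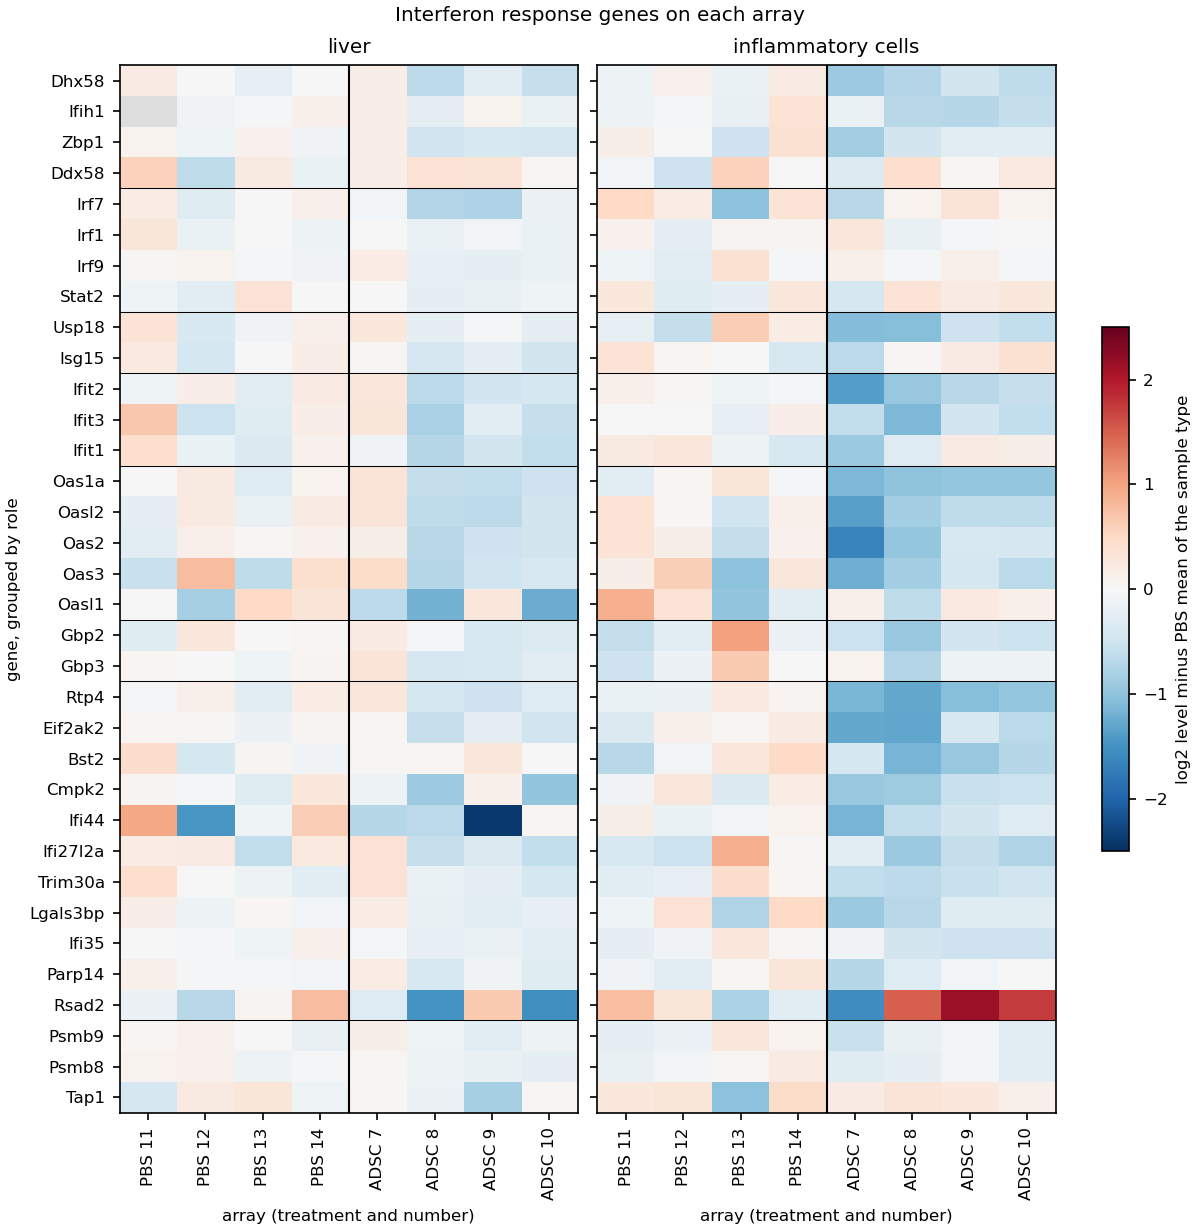
Log2 level of each interferon response gene on each array, minus the mean of the PBS arrays of the same sample type (rows are genes grouped by role, columns are arrays, grey is a missing value). In inflammatory cells 10 genes are below every PBS array on all 4 ADSC arrays, and in liver the ADSC 7 column resembles PBS while ADSC 8 to 10 are mostly blue.

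Leukocyte markers moved with treatment beside these genes. The mean over 16 neutrophil genes was 3.60 to 5.55 on the PBS arrays of inflammatory cells and 0.65 to 1.39 on the ADSC arrays, with 12 of 16 genes falling at an adjusted p under 0.05 and the granule genes Elane and Cd177 well above background on 1 and 3 of the 4 ADSC arrays. Of 10 monocyte and macrophage genes 4 fell (means 3.45 to 3.99 in PBS and 2.23 to 2.49 in ADSC), and of 8 Kupffer cell genes 2 fell (1.48 to 2.86 and -0.14 to 1.30). Plasmacytoid dendritic cells, known as strong producers of interferon alpha, had marker means of 1.10 to 2.00 in PBS and 0.80 to 1.67 in ADSC, with 0 of 10 passing. Other lists lay above 0 with 0 genes passing: B cells (8 of 8 tested, median 1.12, means -0.12 to 1.11 in PBS and 1.30 to 2.17 in ADSC), erythroid cells (5 of 5, median 1.03) and hepatocytes (9 of 9, median 0.89). Of the T and NK cell genes, 3 of 8 and 6 of 8 lay below 0, also with 0 passing. Fewer cells of a type and less RNA per cell cannot be told apart in such samples, and the part of these markers in the interferon genes was not tested.

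**Figure D4:**
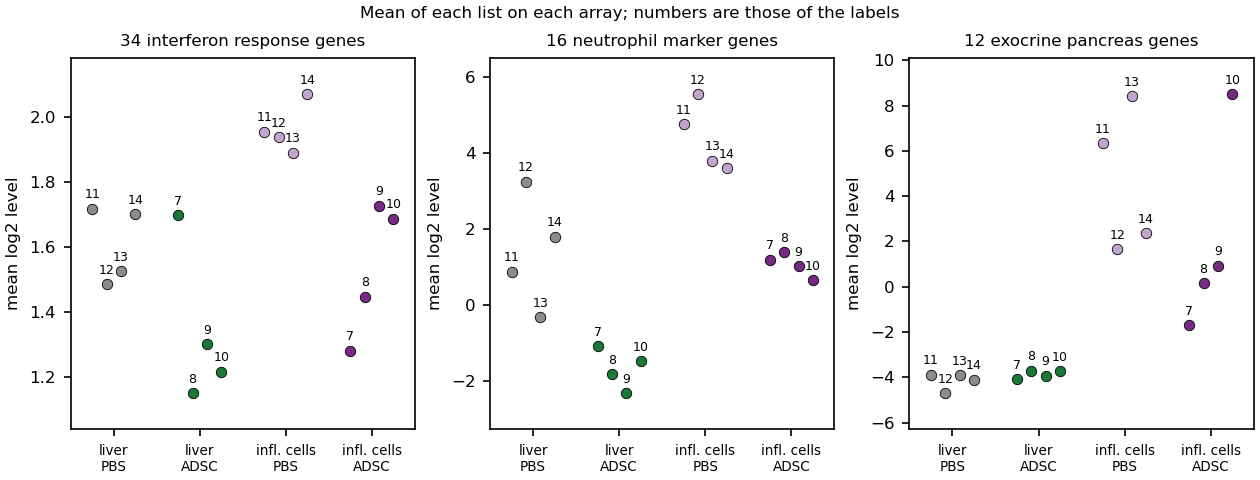
Mean log2 level on each array over the 34 interferon response genes, 16 neutrophil genes and 12 exocrine pancreas genes, with the array numbers beside the points. The interferon gene mean is 1.89 to 2.07 in inflammatory cells PBS and 1.28 to 1.73 in inflammatory cells ADSC, and liver ADSC 7 (1.70) lies with the liver PBS arrays (1.49 to 1.72).

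In whole liver no interferon response gene passed after ADSC, and most estimates were small and below 0. The largest were Ifi44 (-0.93 ± 0.64), Oasl1 (-0.69 ± 0.40) and Rsad2 (-0.67 ± 0.52, SE), each with arrays that spread more than the difference. For Ifi44 the lowest array, liver ADSC 9 at -3.21, was not well above background. Of 34 genes 0 passed, as did 0 of 17321 genes tested (0%), and at an unadjusted p under 0.05 Ifit1 alone was lower (2.02% of all genes were). Estimates lay below 0 for 32 of 34 (94.1%), against 39.7% of all genes, with a median of -0.26 against 0.04. Ddx58 (0.22) and Bst2 (0.09) were the exceptions. The groups overlapped for all 34, where 1.21% of all genes were lower without overlap.

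For 14 of the 34 the overlap was due to ADSC 7 alone. Oas1a read 1.67, 1.90, 1.34 and 1.76 in liver PBS and 1.98, 1.06, 1.06 and 1.15 in liver ADSC, the first of which exceeded every PBS array. Rtp4 read 3.77, 3.93, 3.51 and 3.99 in PBS and 4.08, 3.36, 3.28 and 3.48 in ADSC, with the same pattern. Ifit2 read -0.86, -0.59, -1.01 and -0.54 in PBS and -0.46, -1.42, -1.23 and -1.18 in ADSC. In Oas1a, Rtp4 and Ifit2 alike, ADSC 7 was above the PBS range and the other ADSC arrays were below it. Without ADSC 7, these 14 genes were lower on every ADSC array (2.93% of all genes) and the other 20 still overlapped. The median over the 34 was then -0.40, with 0 passing in limma. The 14 were Dhx58, Eif2ak2, Gbp3, Ifi35, Ifit1, Ifit2, Irf9, Lgals3bp, Oas1a, Oas2, Oasl2, Parp14, Rtp4 and Zbp1. ADSC 7 shared slide 2 with PBS 13, and the 2 others on its scan day were PBS 13 and ADSC 9. Within slide 2 the median was 0.18, with 8 of 34 estimates below 0, and within day 2 it was 0.05, with 12 below 0, where slide 2 sets ADSC 7 alone against PBS 13 and day 2 sets ADSC 7 and 9 against PBS 13. These values rest on 1 PBS array and on ADSC 7, and show neither that the lower levels hold within a batch nor that they do not. The remaining liver arrays had no slide or scan day with both treatments, and their treatment and batch cannot be told apart.

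Other genes named for their role were placed in several ways in liver. Ifit1 read 0.03, -0.54, -0.75 and -0.27 in PBS and -0.48, -1.09, -0.83 and -0.99 in ADSC (-0.47 ± 0.20 SE, unadjusted p = 0.0472, adjusted p = 0.998 in limma). Irf7 read 1.52, 1.03, 1.35 and 1.46 in PBS and 1.26, 0.60, 0.57 and 1.19 in ADSC (-0.43 ± 0.20), where PBS 12 fell among the ADSC arrays. Zbp1 read 1.86, 1.68, 1.90 and 1.71 in PBS and 1.95, 1.28, 1.38 and 1.37 in ADSC (-0.29 ± 0.16). Oas2 read -0.31, 0.08, -0.02 and 0.05 in PBS and 0.09, -0.74, -0.56 and -0.51 in ADSC (-0.38 ± 0.19). In Zbp1 and Oas2 alike, ADSC 7 was the highest of the 8. Eif2ak2 read -0.06, -0.10, -0.26 and -0.06 in PBS and -0.08, -0.69, -0.36 and -0.62 in ADSC (-0.32 ± 0.15). Isg15 read 2.05, 1.36, 1.81 and 1.96 in PBS and 1.83, 1.37, 1.56 and 1.33 in ADSC (-0.27 ± 0.18), and Gbp3 read 1.16, 1.13, 1.00 and 1.18 in PBS and 1.45, 0.69, 0.74 and 0.84 in ADSC (-0.19 ± 0.17). Rsad2 read 1.14, 0.58, 1.36 and 2.06 in PBS and 0.97, -0.20, 1.94 and -0.25 in ADSC, and Ifit3 read 2.84, 1.63, 1.86 and 2.34 in PBS and 2.47, 1.36, 1.91 and 1.59 in ADSC (-0.33 ± 0.31). In Rsad2 the ADSC arrays scanned on day 1 (ADSC 8 and 10) were below every PBS array and those scanned on day 2 were not. Ifi27l2a read 5.54, 5.56, 4.75 and 5.60 in PBS and 5.72, 4.78, 4.99 and 4.76 in ADSC (-0.30 ± 0.27), with PBS 13 down among the ADSC arrays. Psmb8 stayed between 3.57 and 3.80 in PBS and between 3.48 and 3.75 in ADSC (-0.12 ± 0.11). Neutrophil markers moved here too, with means of -0.33 to 3.24 in liver PBS and -2.32 to -1.08 in liver ADSC (0 of 14 genes tested passed), and their part in the interferon genes was not tested.

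**Figure D5:**
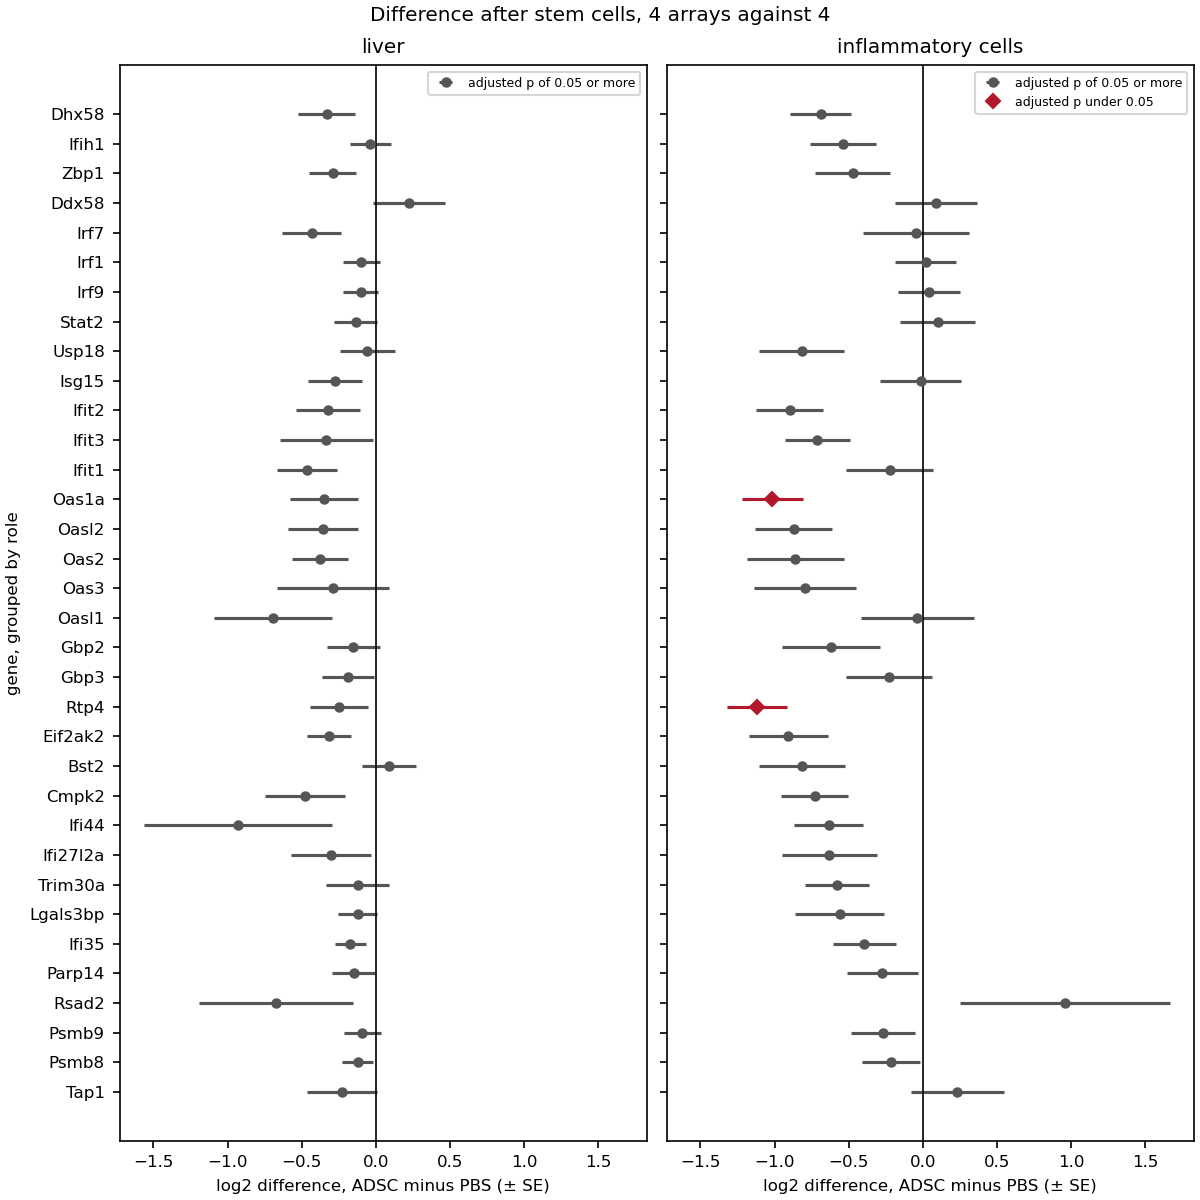
Log2 difference between ADSC and PBS (points, with SE) for the 34 interferon response genes in liver and in inflammatory cells, grouped by role. Red diamonds passed an adjusted p of 0.05, which Rtp4 (-1.12) and Oas1a (-1.01) in inflammatory cells did.

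Whether stem cells affected these genes differently in the 2 sample types was tested in 1 fit of all 16 arrays. For 0 of 34 genes did the effects differ at an adjusted p under 0.05 in limma, against 7 of 22139 genes (0.0316%), and for 4 did they at an unadjusted p under 0.05 (6.7% of all genes were lower in that way, and 3.41% higher against 0 of the 34): Rtp4 (-0.87 ± 0.27, SE, adjusted p = 0.308), Bst2 (-0.90 ± 0.36), Oas1a (-0.66 ± 0.30) and Usp18 (-0.76 ± 0.35), all lower in inflammatory cells. The estimate was below 0 for 24 of 34 (70.6%, against 52.2% of all genes), with a median of -0.24 against -0.03. Rsad2 had the largest estimate above 0, at 1.63 ± 0.98 (adjusted p = 0.592). Rtp4 and Oas1a are therefore not shown to respond differently in inflammatory cells and liver.

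The rest of the pathway was read from separate lists. Of 9 interferon genes tested in inflammatory cells 0 passed after ADSC, with 8 estimates below 0. Ifnb1, interferon beta, read 2.45, 2.79, 2.77 and 1.97 in PBS and -0.04, 1.81, 2.09 and 2.28 in ADSC (-0.96 ± 0.46, SE, adjusted p = 0.290 in limma), with ADSC 7 the lowest of its group, as for Rsad2, Isg15 and Ifit1. In liver it was above background on 0 of 8 arrays. Ifng, interferon gamma, read 4.66, 4.69, 5.50 and 5.99 in PBS and 4.34, 4.74, 5.15 and 5.04 in ADSC (-0.39 ± 0.33), and was above background on 3 liver PBS arrays and 1 liver ADSC array. Of these 9 genes, 3 were above background on enough liver arrays to be tested there.

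The receptor subunits did not pass. Ifnar2 read 3.43, 3.35, 3.41 and 3.28 in PBS and 2.93, 2.73, 2.84 and 2.86 in ADSC of inflammatory cells, with no overlap (-0.53 ± 0.19, SE, adjusted p = 0.195 in limma), while Ifnar1 was at 0.12 ± 0.30. In liver Ifnar2 and Ifnar1 were at -0.10 and -0.05. Of 6 receptor genes, 12 genes of sensing and induction (13 in liver) and 8 negative regulators, 0 passed after ADSC in either sample type.

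Outside the 34, the interferon-induced transmembrane genes fell by more than either listed gene that passed. These proteins keep viruses from fusing with endosomes. Ifitm1 read 5.04, 5.49, 5.45 and 3.95 in PBS and 2.69, 2.77, 2.26 and 2.60 in ADSC of inflammatory cells, 5.27-fold lower (adjusted p = 0.00931 in limma). Ifitm2 read 4.60, 4.99, 4.92 and 4.18 in PBS and 3.07, 3.23, 3.10 and 3.11 in ADSC, 2.93-fold lower (adjusted p = 0.0114). Ifitm3 read 5.78, 6.23, 6.73 and 5.94 in PBS and 4.67, 4.83, 4.85 and 4.77 in ADSC, 2.62-fold lower (adjusted p = 0.0232). The ADSC arrays of all 3 lay close together and below every PBS array. They were the 3 that passed among 24 other interferon-induced genes tested, where 1.07% of all genes passed as lower, and 20 of the 24 had estimates below 0, against 47.2% of all genes (median -0.27). In liver 0 of the 24 passed, and Ifitm1, Ifitm2 and Ifitm3 were at -1.01 ± 0.28, -0.33 ± 0.11 and -0.07 ± 0.11 (SE, adjusted p of 0.888 to 0.998).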

How the data were processed

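RNA of 16 samples was measured on 16 one-colour Agilent arrays. The processed signal, a fluorescence intensity, was made by the authors with Agilent Feature Extraction (version 10.5.1.1 per the file headers), which subtracts background within an array and leaves arrays unscaled. Normexp (offset 50) used the spots' median signal and median background, likewise deposited intensities, since the mean signal planned for it is not among the columns used. Marks for well above background and outliers are 0 or 1, another kind of value per the file headers. The deposited value table equals the processed signal (largest relative difference 0), is linear and not centred, and has no direction to settle. By array number, its medians in liver were 34.3, 74.9, 44.4, 62.1 (PBS) and 58.7, 49.4, 41.9, 54.3 (ADSC), and in inflammatory cells 61.4, 86.3, 50.9, 97.4 (PBS) and 65.3, 32.2, 50.6, 51.5 (ADSC).

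Outlying spots (71 to 124 per array) were dropped, log2 signal had the 75th percentile over the 43379 non-control spots subtracted, and spots were averaged over 41174 probes, of which 23374 had a symbol through RefSeq accessions. The brightest of several probes stood for a gene, and 13 of the 34 genes had several. No probe position is given, since array and annotation use different builds. Genes had to be well above background on 4 or more of the arrays compared, and were tested in R 4.3.3 with limma 3.58.1 (lmFit, eBayes), Benjamini-Hochberg over all genes, threshold 0.05. Treatments were compared over 8 arrays, sample types and the difference of effects over 16. On simulated data a log2 change of 1 was recovered for 34% of genes in liver (17321 genes) and 14% in inflammatory cells (20165), and of 2 for 90% and 71%. Each gene's simulated spread was pooled over all 16 arrays, so these rates leave out differences in spread between liver and inflammatory cells. The number of arrays limits the precision.

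The genes and lists were chosen with earlier results of these data known. Genes given in full are those that passed, and in each role the smallest p per treatment comparison and the highest mean. Rsad2, Cmpk2, Isg20 and examples among the rest were added after their values were seen. Array numbers were not used to pair samples, since the labels do not say whether equal numbers share an animal. The correlation of liver and inflammatory cell deviations of the same number was -0.06 to 0.17, which does not settle it. Alternatives covered background, scaling, probe choice, filters, batch terms, array weights, the 16-array fit and arrays left out.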

Additional observations from a re-analysis of the deposited data

Results flagged for a closer look

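Of 136 groups of arrays (34 genes in 4 groups), all were examined except Ifih1 in liver PBS, which has only 3 values. In 11 of those examined, 1 array lay far outside the other 3 by Dixon's gap test, which chance gives for about 1 group in 20. Liver ADSC 7 was such an array for Oas1a (1.98, with 1.06 to 1.15 on the others), Zbp1 (1.95, with 1.28 to 1.38) and Irf9 (1.57, with 1.18 to 1.22). Other liver arrays were PBS 13 for Ifi27l2a (4.75, with 5.54 to 5.60) and ADSC 9 for Bst2 (5.56, with 5.30 to 5.34).

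In inflammatory cells, ADSC 7 stood apart for Stat2 (0.39, with 1.02 to 1.15) and Ifi35 (1.64, with 1.21 to 1.26), and ADSC 8 for Oasl1 (1.65, with 2.40 to 2.52) and Gbp2 (0.86, with 1.27 to 1.33). PBS 12 stood apart for Irf1 (5.01, with 5.32 to 5.36) and PBS 13 for Tap1 (-1.38, with -0.10 to 0.09).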

How the results depend on the processing

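Depth of signal was no limit in inflammatory cells, where all 34 genes were well above background. The number passing as lower there was 2 as reported. It was 0 with quantile normalization, the 75th percentile over detected probes or no filter. With slide or scan day as a fixed term or without the pancreas-rich arrays it was also 0. It was 4 with all 16 arrays in 1 fit, 7 with slide as a random block, 10 with array weights, and 0 to 2 without 1 array (0 to 1 as higher). The cause was not tested. The median was -0.36 with quantile normalization and -0.58 to -0.41 without 1 array, and genes lower on every ADSC array numbered 18 without the pancreas-rich arrays and 10 to 15 without 1 array. Over all genes 109 passed with no filter, 161 with scan day, 818 with slide as a random block, 918 with all 16 arrays, 4535 with array weights (2658 higher), 0 with slide fixed (5368 at unadjusted p under 0.05) or without the pancreas-rich arrays, and 68 to 507 without 1 array.

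In liver the median turned to 0.18 with slide and 0.050 with scan day as a fixed term and was -0.40 to -0.18 without 1 array, and 0 to 14 genes were lower on every ADSC array. Over all genes 1 passed with the mean of probes, 9 with all 16 arrays and 18 with array weights. With slide fixed, gene estimates turned to 0.050 (Zbp1), 0.38 (Dhx58), 0.017 (Irf1), 0.012 (Isg15), 0.36 (Usp18), 0.28 (Ifit1), 0.55 (Ifit2), 0.61 (Ifit3), 0.11 (Oas2), 0.65 (Oas1a), 0.44 (Gbp3), 0.22 (Gbp2), 0.18 (Eif2ak2), 0.57 (Rtp4), 0.97 (Ifi27l2a), 0.18 (Psmb8) and 0.13 (Psmb9). With scan day fixed they turned to 0.15 (Dhx58), 0.21 (Usp18), 0.10 (Ifit1), 0.17 (Ifit2), 0.33 (Ifit3), 0.18 (Oas1a), 0.088 (Gbp3), 0.040 (Eif2ak2), 0.17 (Rtp4), 0.61 (Ifi27l2a), 0.061 (Psmb8) and 0.093 (Rsad2), and with array weights Psmb9 to 0.0033. Without 1 array Irf1 ran from -0.15 to 1.6e-05 and Usp18 from -0.19 to 0.056. None of these passed.

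In inflammatory cells signs turned, in genes that did not pass: Irf1 to -0.10 with normexp; Isg15, Oasl1, Psmb8 and Psmb9 to 0.26, 0.13, 0.10 and 0.032 with quantile normalization; Irf7, Isg15 and Oasl1 to 0.068, 0.10 and 0.077 with detected probes; Stat2 and Rsad2 to -0.028 and -0.56 with slide fixed; Irf7 to 0.11 with scan day; Isg15 and Ifit1 to 0.18 and 0.010 with array weights; and Isg15 to 0.031 without the pancreas-rich arrays. Without 1 array Irf7 ran from -0.39 to 0.17, Isg15 from -0.15 to 0.20, Oasl1 from -0.36 to 0.26, Irf1 from -0.070 to 0.087 and Ifit1 from -0.37 to 0.011.

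For the difference of effects, 32 genes passed with normexp, 22 with quantile normalization, 1 with detected probes, 64 with the filter on every array, 919 with array weights, 0 with no filter, slide or scan day fixed (2528, 2138 and 2106 at unadjusted p under 0.05 in limma), and 0 to 47 without 1 array; the median was -0.53 with slide fixed and -0.34 to -0.13 without 1 array. With the array number as a replicate block 0 genes passed (2046 at unadjusted p under 0.05 in limma) in place of 7. Of the 8 numbers, 4 correlated best with their own number, which cannot show whether equal numbers share an animal. The block changed no call among the 34 there, and in the comparison of sample types 15 of the 34 passed as higher (16 without it) and 10 as lower. In that comparison the median was 0.45 with quantile normalization, 0.59 with detected probes and 0.19 to 0.30 without 1 array; 10437 genes passed with the filter on every array and 18028 to 18527 without 1 array, and 14 to 16 of the 34 were higher and 10 lower then. Settings not listed kept each count within 1.5 times and each median within 1 standard deviation (SD) of the arrays.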
